A study of Mus musculus with 2 samples.

Results

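Platelets stick to a damaged vessel wall through a small set of surface glycoproteins and then release granules packed with chemokines and adhesion proteins. The 10 genes described here encode these parts: the subunits of the von Willebrand factor receptor (Gp1ba, Gp1bb, Gp9 and Gp5), the collagen receptor Gp6, the granule chemokines Pf4 and Ppbp, the adhesive granule protein Vwf, and Selp and Treml1, membrane proteins that granules carry to the surface. They were taken as a list of symbols, by a rule that uses no measured value but with earlier results of these data known, from the 21947 genes that the annotation of the array names. Each is represented by every probeset that the annotation assigns to that gene alone, 126 probesets in all. A probeset is a small group of probes that reads 1 stretch of a transcript.

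The cells came from Bry-GFP, a mouse embryonic stem cell line. FLK1-positive mesoderm cells were taken from day 3 embryoid bodies. One culture received only DMSO, the solvent, and the other received compound B, an inhibitor of the histone demethylase LSD1, at 300 nM. On day 2 of culture the CD41-positive cells were sorted from each culture, and an Affymetrix array was run on the total RNA, 1 array per condition. Every difference below is therefore between 2 arrays, with no replicate, no error between samples and no test. The labels give no separate animal or clone, and all cells descend from this 1 line.

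Platelet genes are made in megakaryocytes, the large bone marrow cells that shed platelets, and some are already transcribed in the early blood cells of the embryo that carry CD41. CD41 is itself the alpha chain of the platelet fibrinogen receptor. GATA1, FLI1 and RUNX1 are known activators of this programme, and the repressors GFI1 and GFI1B work by recruiting LSD1 to their target genes. Vwf and Selp differ from the others in the list, because endothelial cells store both proteins in Weibel-Palade bodies, the secretory granules of the vessel lining.

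Of the 10 genes, Pf4 had the lowest median: it was 4.89-fold lower in the inhibitor array, where its level of 2.70 lay under the median of the table. With such dim values raised to that median the difference was -0.77, under 2-fold. The 3 subunits Gp9, Gp1bb and Gp1ba also had medians below 0, by smaller amounts or on few probesets. Ppbp, the neighbour of Pf4 in the genome, differed by -0.03, and Gp6 by 0.03. Vwf and Treml1 were slightly below 0, Selp was slightly above 0, and Gp5 was too dim to read. These values are log2 differences, inhibitor minus DMSO, taken as the median over the probesets of a gene that were bright, meaning that the higher of the 2 values reached 3.17, the median of the whole table.

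Only genes with at least 4 bright probesets count as measured, which 6 of the 10 were: Pf4, Gp1bb, Gp6, Vwf, Treml1 and Selp. The size rule asked for a 2-fold difference or more, which is 1 on the log2 scale, with 75% or more of the bright probesets on the side of the median. Pf4 was lower past this rule, none of the 6 was higher past it, and 5 were neither. Over the 15087 measured genes of the table, 0.563% were lower past the rule and 1.72% were higher. The median difference of the 6 measured members was -0.24 beside 0.06 over all measured genes, and the central 90% of all measured genes lay between -0.50 and 0.68. Ppbp, Gp1ba and Gp9 had 3 bright probesets each and Gp5 had none, so the values given for these 4 rest on less.

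**Figure D1:**
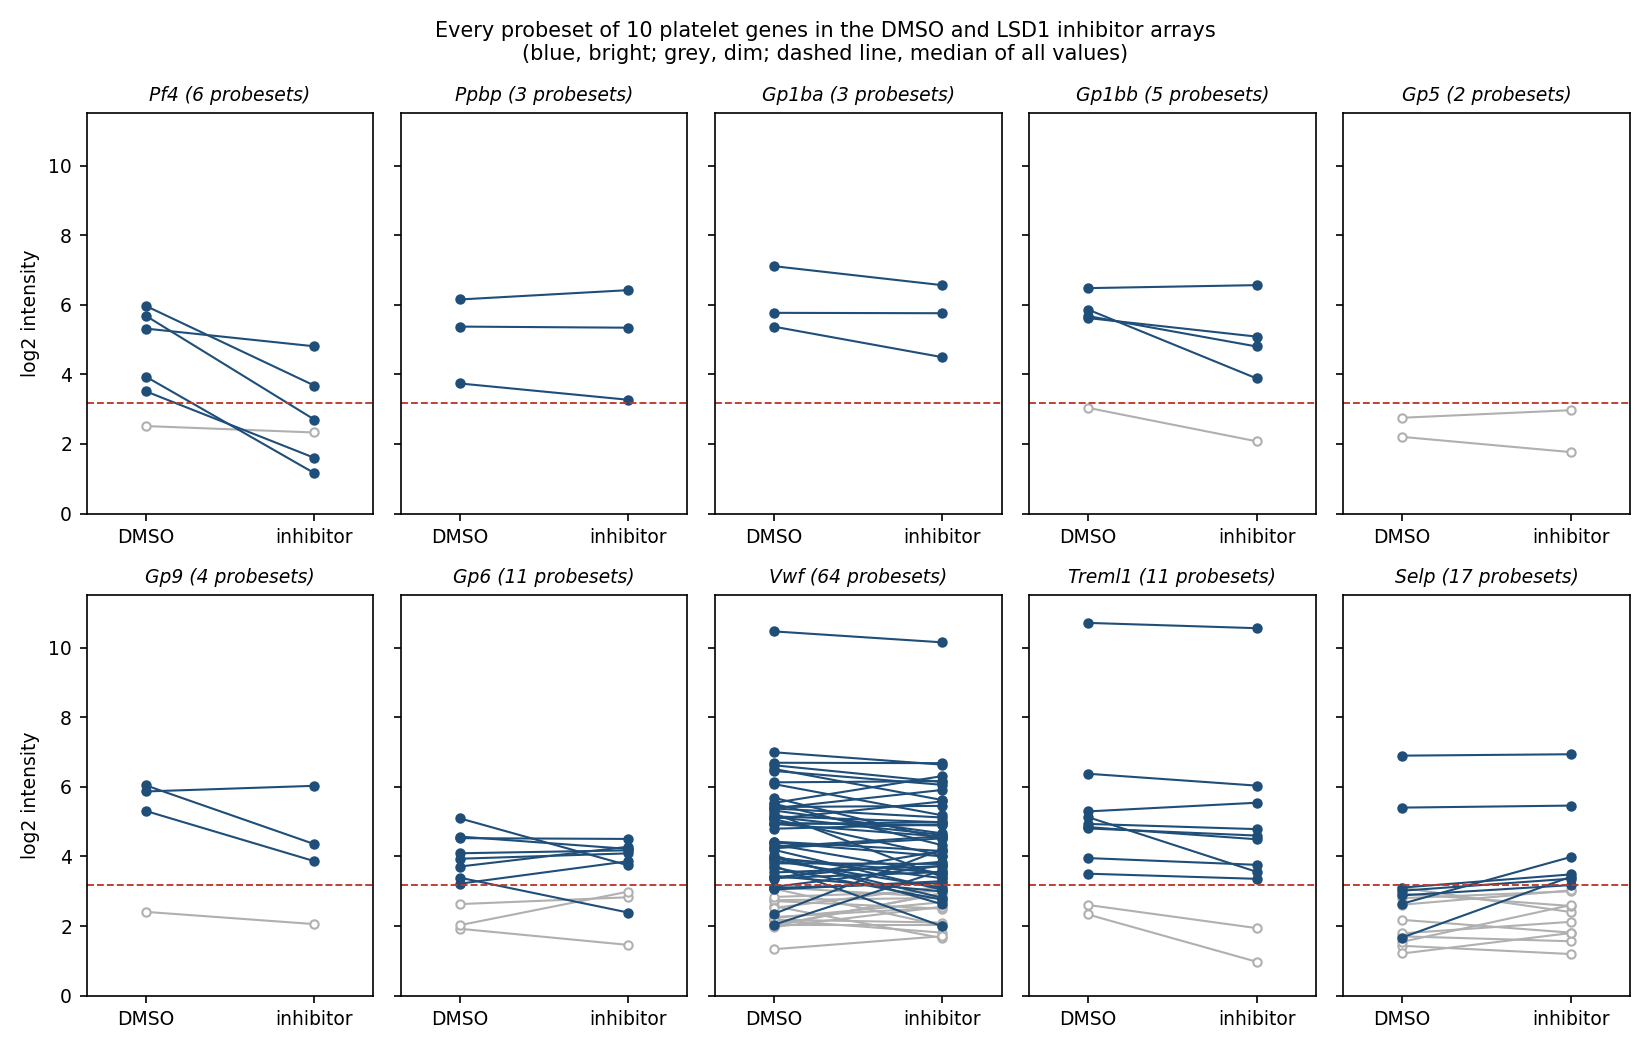
Log2 intensity (y axis) of every probeset of the 10 genes in the DMSO array and the LSD1 inhibitor array (x axis), with a line joining the 2 values of a probeset, bright probesets in blue, dim ones in grey and the table median, 3.17, as a dashed line. All 6 probesets of Pf4 slope down. Of the 3 of Ppbp, 2 slope down, by 0.47 and 0.03, and 1 slopes up by 0.27.

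Pf4 encodes platelet factor 4 (CXCL4), a CXC chemokine stored in alpha granules that binds heparin. Its 5 bright probesets read 5.97, 5.69, 5.31, 3.94 and 3.51 in the DMSO array. The same probesets, in that order, read 3.68, 2.70, 4.81, 1.16 and 1.60 in the inhibitor array. Every one of them was lower with the inhibitor. For the 3 that read under the median of the table there, a direction downward was built in, since they counted as bright through their DMSO value. The 2 that were bright in both arrays were lower by 2.29 and 0.51.

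The differences of Pf4 ran from -2.98 to -0.51 with a median of -2.29 (SD 0.98 over the 5 probesets, which is no replicate error). The remaining probeset, dim in both arrays at 2.51 and 2.33, was lower as well. Only 5 of the 15087 measured genes had a difference further below 0. That rank includes the 3 probesets whose direction was built in, and the difference was -0.77 with dim values raised to the table median. The files give no detection call for dim values such as those of Pf4 in the inhibitor array. The 5 bright probesets all lay above the median of the table in the DMSO array. For 3 of them this was fixed in advance, since they counted as bright through that value. Those bright in both arrays read 5.97 and 5.31 with DMSO, and the dim one read 2.51. The level reached with the inhibitor is uncertain.

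Ppbp, also called CXCL7, is the other abundant chemokine of platelet granules and is cut to an active form that attracts neutrophils. Its 3 probesets read 6.15, 5.37 and 3.74 in the DMSO array and 6.42, 5.34 and 3.27 in the inhibitor array. The differences were 0.27, -0.03 and -0.47, so that the 3 probesets lay on either side of 0. In the RefSeq gene order Ppbp is next to Pf4, with Cxcl5 on its other side and Cxcl3 on the far side of Pf4. Of 5 other CXC chemokine genes of this cluster, Cxcl1 was measured, at levels of 6.78 and 6.41 (difference -0.49, SD 0.77 over 5 probesets, 3 of them lower). The other 4 had too few bright probesets. Over all their probesets, Cxcl5 differed by 0.42, Cxcl15 by 0.16, Cxcl3 by 0.12 and Cxcl2 by -0.40.

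The bases just before the start sites of Pf4 and Ppbp are shown because these neighbours differed so unequally between the arrays, and those of the 3 receptor subunits because their medians lay on the same side of 0. Each line is the 120 bases before the start, 5′ to 3′ on the strand of the gene, from RefSeq on GRCm38.p6. The places are chr5:90772315-90772434 (plus strand) for Pf4, chr5:90768398-90768517 (plus) for Ppbp, chr11:70639002-70639121 (plus) for Gp1ba, chr16:18622404-18622523 (minus) for Gp1bb and chr6:87777950-87778069 (plus) for Gp9. Capitals mark a GATA word (the letters GATA with A or T before them and A or G after them), an ETS word (the letters GGAAG with A or C before them) or a TATA box word (TATAAA), on either strand.
Pf4: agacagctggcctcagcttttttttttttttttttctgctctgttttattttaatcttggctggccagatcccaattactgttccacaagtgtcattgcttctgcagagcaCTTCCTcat
Ppbp: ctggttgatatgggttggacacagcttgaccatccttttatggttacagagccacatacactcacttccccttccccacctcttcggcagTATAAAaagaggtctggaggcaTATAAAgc
Gp1ba: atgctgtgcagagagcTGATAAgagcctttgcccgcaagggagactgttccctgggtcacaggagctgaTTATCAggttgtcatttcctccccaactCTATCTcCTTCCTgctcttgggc
Gp1bb: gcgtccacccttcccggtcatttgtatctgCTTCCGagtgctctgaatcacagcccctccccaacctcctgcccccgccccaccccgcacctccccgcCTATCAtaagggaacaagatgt
Gp9: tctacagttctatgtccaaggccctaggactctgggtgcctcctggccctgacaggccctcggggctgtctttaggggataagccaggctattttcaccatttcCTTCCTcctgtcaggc

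Pf4 has 1 ETS word next to its start, and Ppbp has neither a GATA nor an ETS word but 2 TATA box words. Gp1ba has 3 GATA words and 1 ETS word, Gp1bb has 1 of each, and Gp9 has 1 ETS word. Over the 250 bases before the start, 4 of the 9 members in the promoter table hold a GATA word (Gp1ba, Gp1bb, Gp5 and Gp6), against 26.5% of 32851 windows of the same length. An ETS word is in 6 of the 9 (Pf4, Gp1ba, Gp1bb, Gp5, Gp9 and Selp), against 39.2%. The word AATCAC, a short form of the site that GFI1 proteins bind, is in 1 of the 9, Gp1bb, against 9.14%. A RUNX word (TGNGGT, where N is T or C) is in 1, Gp9, against 18.6%, and the TATA box word in 1, Ppbp, against 12.4%. No printed word overlaps another. A GATA and an ETS word together are in 3 of the 9, against 9.21%. Of the members with a GATA and an ETS word, Gp1ba differed by -0.55 and Gp1bb by -0.70, and Gp5 was too dim to read. Of those with an ETS but no GATA word, Pf4 differed by -2.29, Gp9 by -1.44 and Selp by 0.35. Gp6, with a GATA but no ETS word, differed by 0.03. Ppbp and Treml1 have neither and differed by -0.03 and -0.19. Vwf is absent from the promoter table and so from these groups. The values of Gp1ba, Gp9 and Ppbp rest on 3 bright probesets each. Whether these words bear on the differences was not tested.

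The platelet receptor for von Willebrand factor is built from GPIb alpha (Gp1ba), which binds the ligand, GPIb beta (Gp1bb), GPIX (Gp9) and the more loosely held GPV (Gp5). Its first 3 subunits depend on each other for transport to the surface. Of the 12 probesets of Gp1ba, Gp1bb and Gp9, 10 were lower in the inhibitor array and 2 were higher. Over all probesets of the table with 1 gene, bright or dim, 46.0% were lower. Of the 10 bright ones, 8 were lower, beside 45.2% of all bright probesets. Probesets of 1 gene read the same transcript and are not replicates.

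Gp1ba was read by 3 probesets, at 7.11, 5.77 and 5.37 in the DMSO array and at 6.56, 5.76 and 4.49 in the inhibitor array. All 3 were lower, by 0.55, 0.01 and 0.88, which gives a median difference of -0.55 (SD 0.44). The middle probeset sets the level in each array and hardly moved.

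Gp1bb had levels of 5.77 and 4.94 and a median difference of -0.70 (SD 0.87 over 4 bright probesets). Its 4 bright probesets read 6.48, 5.86, 5.67 and 5.62 in the DMSO array and 6.56, 3.88, 4.80 and 5.08 in the inhibitor array. One was higher by 0.09 and the other 3 were lower, the most by 1.98, so the size of the difference depends on which stretch of the transcript is read. The remaining probeset, a dim one, went from 3.04 to 2.08. Another 7 probesets are assigned to Gp1bb together with its neighbour, the septin gene Septin5. All their values lay between 1.43 and 3.82, and 5 of the 7 were lower. With these kept, the difference of Gp1bb was -0.55. The gene did not pass the 2-fold rule in any setting, and it passed at 1.5-fold.

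Gp9 had 3 bright probesets, at 6.04, 5.87 and 5.31 in the DMSO array and at 4.36, 6.03 and 3.87 in the inhibitor array. Of these, 2 were lower by 1.69 and 1.44, and 1 was higher by 0.16. The median difference was -1.44, which is 2.72-fold, but 2 of 3 probesets fall short of the 75% required, and the gene has 1 bright probeset too few to count as measured. Its dim probeset was lower by 0.35, and over all 4 probesets the median was -0.90.

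Gp5 was read by 2 probesets, both dim, at 2.75 and 2.20 in the DMSO array and 2.97 and 1.77 in the inhibitor array. No direction can be read for this subunit.

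**Figure D2:**
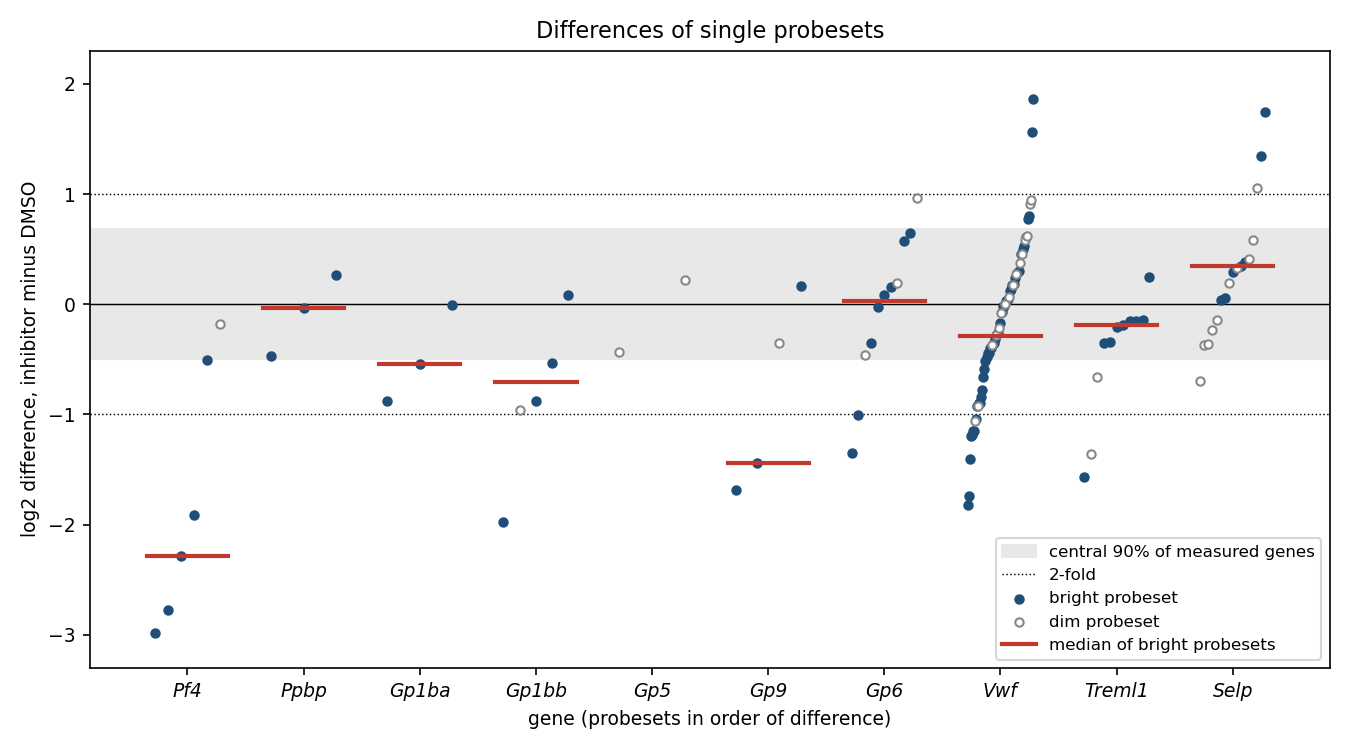
Log2 difference, inhibitor minus DMSO (y axis), of each probeset of the 10 genes (x axis), filled for bright and open for dim probesets, with the median of the bright ones as a red bar, the central 90% of measured genes (-0.50 to 0.68) as a grey band and 2-fold as dotted lines. The medians of Pf4 and Gp9 lie beyond 2-fold, those of Gp1ba and Gp1bb lie between the band and 2-fold, and the others lie inside the band.

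Gp6 encodes the collagen receptor glycoprotein VI, which signals through the Fc receptor gamma chain. Its levels were 4.01 in the DMSO array and 4.13 in the inhibitor array. Of its 8 bright probesets, 4 were lower and 4 were higher, with differences from -1.35 to 0.65 and a median of 0.03 (SD 0.71). The mean of the same probesets was -0.16, of the opposite sign, so Gp6 shows no direction. The signalling partner of Gp6, Fcer1g, had levels of 3.72 and 4.42 and differed by 0.28 (SD 1.24 over 6 probesets). Clec1b, the CLEC-2 receptor of platelets, had levels of 3.61 and 4.32 and differed by 0.56, and by -0.10 when its dim probesets were kept. The kinase gene Syk, which acts downstream of these receptors, differed by -0.33 (SD 1.15 over 12 probesets).

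Vwf encodes von Willebrand factor, the large multimer that bridges collagen and platelets. With 64 probesets, 48 of them bright, it is the most densely covered gene of the 10. The bright probesets ran from 2.04 to 10.47 in the DMSO array, with a median of 4.61, and from 1.99 to 10.15 in the inhibitor array, with a median of 4.27. Of the 48, 30 were lower and 18 were higher, and the median difference was -0.29 (SD 0.75). In the inhibitor array 7 of the 48 lay under the table median, and in the DMSO array 5 did. A direction was built in for these, downward for the 7 and upward for the 5. The 24 brightest, those reaching the 75th percentile of the table (4.84), had 17 lower and 7 higher and a median of -0.34. The 16 dim ones had 6 lower and 9 higher and a median of 0.12. Over all 64 the median was -0.13. Single probesets spread far on either side, 9 of the 64 at least 2-fold lower and 2 at least 2-fold higher. The small median therefore stands on a wide spread. The 2 higher ones read 2.04 and 2.35 with DMSO and counted as bright through their inhibitor value.

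Treml1 encodes TLT-1, a receptor of the TREM family that is stored in alpha granules and appears on activated platelets. Its levels were 4.93 and 4.60. Of its 9 bright probesets, 8 were lower and 1 was higher, with a median difference of -0.19 (SD 0.50). Their agreement in direction went with small sizes: 1 probeset was lower by 1.57, and the other 8 lay between -0.35 and 0.25. The brightest read 10.71 and 10.56. The 2 dim probesets were lower by 1.36 and 0.66. Of 5 other Trem genes, 3 were measured and none passed the size rule: Treml4 differed by -0.34, Treml2 by -0.15 and Trem2 by 0.12.

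Selp encodes P-selectin, which moves to the surface of activated platelets and endothelium and captures white cells. Of its 17 probesets, 7 were bright and all 7 were higher in the inhibitor array, with levels of 3.01 and 3.48 and a median difference of 0.35 (SD 0.67). In the DMSO array 5 of the 7 lay under the median of the table, so they counted as bright through their inhibitor value, and a direction upward was then built in. The 2 that were bright in both arrays read 6.90 and 5.40 with DMSO and 6.94 and 5.46 with the inhibitor, differences of 0.04 and 0.06. Among the 10 dim probesets, 5 were higher and 5 were lower. The upward median of Selp rests on the 5 that were dim with DMSO. Sele, the endothelial selectin next to it in the genome, differed by 0.02 (SD 0.77 over 7 probesets), and Selplg, the ligand of P-selectin on white cells, by -0.08.

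Across the 10 genes the differences went with no single function. The chemokine pair split, the medians of the 3 receptor subunits were all below 0, and the collagen receptor stayed near 0. Of these genes, Ppbp, Gp1ba and Gp9 had 3 bright probesets each and did not count as measured. Over all probesets, bright or dim, 8 of the 10 medians were below 0, and those of Gp6 and Selp were above 0. The count was also 8 with each array centred, after quantile normalization and with a level-dependent trend removed. These scalings start from the same arrays, so they add no independent evidence. The share of all genes with such a median below 0 is not given here, so the count cannot be set against a background. Several of the 8 were small: Ppbp was at -0.03, Gp5 at -0.11 and Vwf at -0.13. The value of Gp5 comes from 2 dim probesets, 1 lower and 1 higher, and gives no direction.

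Other genes of platelets and megakaryocytes gave a similar mixture. The 9 related lists hold 113 genes, of which 97 were measured, 2 were lower past the size rule and 4 were higher. Over all 15087 measured genes, 0.563% were lower past the rule and 1.72% were higher. These shares are the background for the counts of each list below. Among platelet receptors and their signalling, 1 of 20 measured genes was lower, 0 were higher, and the list median was -0.02. The lower one was P2rx1, the ATP-gated channel of platelets, at 5.76 and 4.21 (difference -1.66, SD 0.70, 11 of 12 probesets lower). The junction protein gene F11r (0.51) and Cd226 (-0.53) were the next furthest from 0 after Clec1b. Itgb3, the partner of CD41 in the fibrinogen receptor, differed by -0.33, in 11 of 14 probesets.

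Alpha granule cargo followed the same course, with 1 of 17 measured genes lower, none higher and a median of -0.05. Thbs1, which encodes the adhesive protein thrombospondin 1, had levels of 7.74 and 6.29 (difference -1.28, SD 0.37) and was lower in 23 of 23 probesets. Mmrn1, the granule protein that binds factor V, differed by -0.93 (SD 0.71) from a level of 3.54 that was already near the median of the table. The difference of Mmrn1 was -0.46 with each array centred or quantile normalized, -1.08 and past the size rule with the level-dependent trend removed, -0.34 with dim probesets kept and -0.06 with dim values raised to the table median. On the other side of 0 lay the growth factor genes Igf1 (0.82) and Vegfa (0.70) and the protease inhibitor gene Timp1 (0.62), which many cells besides platelets make. Which cells of the pool made the RNA of these genes, or of Thbs1 and Mmrn1, was not tested. Mmrn1, Igf1, Vegfa and Timp1 did not pass the size rule on the deposited scale.

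Genes that form and release granules had 1 of 17 higher and none lower, with a median of 0.17. The higher one was Gfi1b, a repressor needed for megakaryocytes and normal alpha granules (levels 8.41 and 9.93, difference 1.56, 7 of 7 probesets). Rab27b, a small GTPase of platelet granules, differed by -0.61 and its relative Rab27a by 0.58. Vps33b, which sorts cargo to alpha granules, differed by 0.48 and Stxbp2, part of the fusion machinery, by 0.34.

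Among 15 transcription factors of megakaryocytes, 3 were higher, namely Gfi1b, Ets1 (1.47) and Gata2 (1.41), and none was lower (median 0.11). Gata1, the main activator of platelet genes, differed by -0.73 in 9 of 9 probesets, Tal1 by -0.46 in 9 of 9, and Nfe2, needed for the last steps of platelet release, by -0.46. Fli1, an ETS factor that binds platelet gene promoters, differed by 0.51 in 9 of 9. These 4 did not pass the size rule. None of 14 genes of the proplatelet cytoskeleton passed it on the deposited scale, with a median of 0.09. Tubb1, the beta tubulin particular to megakaryocytes and platelets, was at 4.80 and 4.10 (-0.90, 4 of 4 probesets lower), and Tuba4a at 7.84 and 7.53 (-0.92, 7 of 7 lower, and -1.02 and past the rule with the level-dependent trend removed). Tuba8 differed by 0.99 with an SD of 1.74, by 0.34 as a mean and by 0.16 with dim probesets kept. Diaph1 differed by -0.46.

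The Weibel-Palade body list, which bears on Vwf and Selp in endothelium, had 1 of 9 measured genes higher and none lower, with a median of 0.03. The higher one was the vasoconstrictor peptide gene Edn1, at 4.82 and 6.20 (1.24, 7 of 7 probesets). Angpt2, stored beside Vwf in these bodies, differed by -0.55, Stxbp5, a regulator of their release, by -0.53, the membrane protein gene Cd63 by 0.35 and Plat by -0.22.

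**Figure D3:**
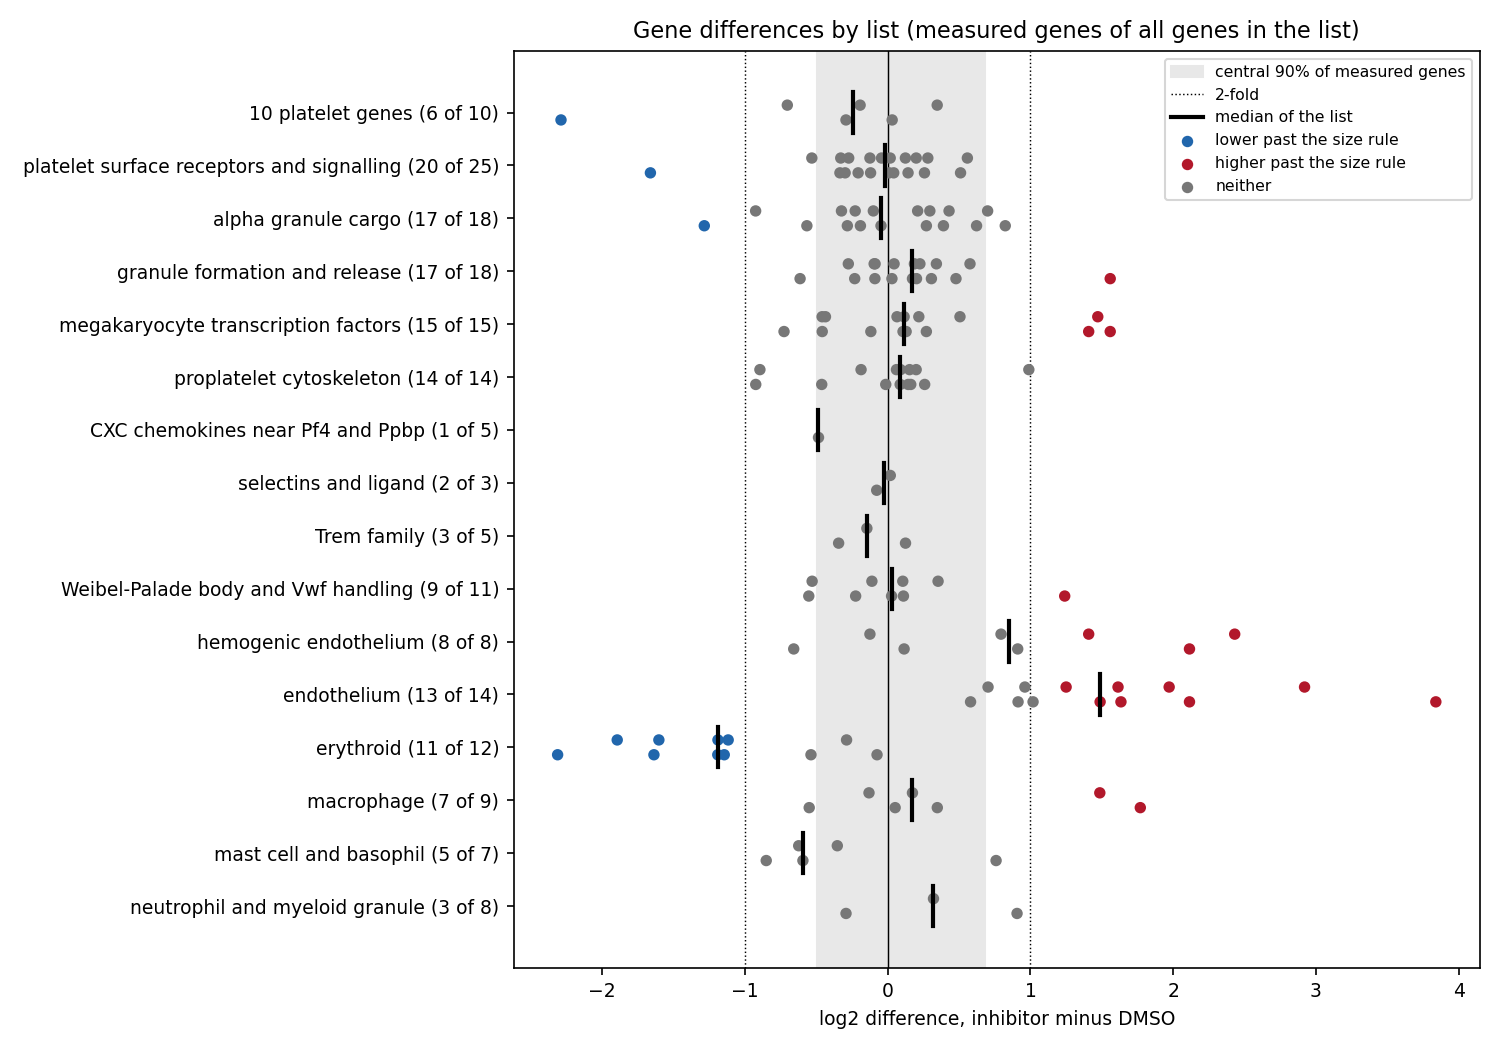
Log2 difference, inhibitor minus DMSO (x axis), of each measured gene of the 10 platelet genes, of 9 related lists and of 6 marker lists (y axis, with the number measured of the number listed), in blue where lower past the size rule, red where higher and grey otherwise, with the list median as a black bar and the central 90% of measured genes as a grey band. Each related list has genes on either side of 0, except the CXC chemokines with 1 measured gene, while the endothelium list lies above 0 and the erythroid list below.

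Markers of other cell types also differed between the 2 arrays. Their counts stand beside the same shares of all measured genes, 0.563% lower and 1.72% higher past the rule. Itga2b, the gene of the sort marker CD41, was at 6.19 and 6.00 (difference -0.12). Of 8 hemogenic endothelium markers, 3 were higher past the size rule and none was lower, with median levels of 6.55 and 7.33. Of 13 measured endothelium markers, 8 were higher, none was lower and all 13 were above 0 (median 1.49), with a median level of 6.36 in the DMSO array and 7.78 in the inhibitor array. Vwf, at -0.29, was not among the endothelial genes that were higher. Of 11 measured erythroid markers, 8 were lower, none was higher and all 11 were below 0 (median -1.19), with median levels of 7.04 and 6.78, and Car1 lay under the median of the table in the inhibitor array. Among macrophage markers 2 of 7 were higher (median 0.17), and none of 5 mast cell or 3 neutrophil markers passed the size rule (medians -0.59 and 0.32). The part of these cell types in the difference of Pf4 or of the receptor subunits was not tested. In a sorted pool, fewer cells of a type and less RNA per cell cannot be told apart.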

How the data were processed

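The deposited table gives 1 value per probeset and array for 1048575 probesets, read here as log2 intensity because the values run from 0.157 to 13.5. How the authors summarised and normalized them, and on which genome build, is not given in the sources used here. Put in order of size, the values of the 2 arrays are never more than 0.0846 apart. The table is as long as a common spreadsheet program allows, so probesets beyond its end were not analysed here. It has no detection calls, and precision is limited by having 2 arrays.

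Groups came from the sample titles. Gene names came from the platform annotation (270105 probesets with 1 symbol, 5737 with several, left out) and were updated through RefSeq (GRCm38.p6), in which 10 of 10 member symbols are current. Levels and differences are medians over bright probesets, computed with Python 3.11.15, numpy 2.4.6 and pandas 2.3.3, and the procedure was tested on simulated data. A level gap need not equal the median difference. Members, lists and alternatives were chosen with earlier results of these data known. All 10 members were named, and of each related list the genes past the size rule and up to 4 others with the largest absolute difference. Other named genes (Itga2b, Itgb3, Fcer1g, Car1 and the chemokines without enough bright probesets) were added after their values were seen. The promoter table held 9 of the 10 members and was searched on both strands. The 13 alternatives changed the scaling, the brightness filter, the summary, the probesets needed, a floor or the size rule, 1 at a time, with statsmodels 0.14.6 for the lowess trend.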

Additional observations from a re-analysis of the deposited data

How the results depend on the processing

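With 1 lower member in the main setting, 4 of 13 alternatives gave another count. No member was lower with bright set at the 75th percentile of the table or with at least 8 bright probesets (0 of 3 measured members each, Pf4 no longer measured), and 0 of 6 were lower when every value under the median of the table was lifted to that median. At 1.5-fold the count was 2, with Gp1bb added. No member was higher past the rule in any of the 13, and the median difference of the measured members ran from -0.34 to -0.19. Pf4 ran from -2.60 to -0.77, Gp1bb from -0.87 to -0.55, Vwf from -0.34 to -0.13, Treml1 from -0.32 to -0.17 and Selp from 0.19 to 0.60 over the alternatives that measured them. Gp6 turned from 0.03 to -0.16 as a mean over its probesets. Over all alternatives, 26 counts of genes past the rule in the related and marker lists moved by more than 1.5 times. Among the other genes named, Clec1b turned to -0.10 with dim probesets kept, and these also moved by over 1.5 times: Mmrn1 and Tuba8, as given with their lists, Nfe2 (-0.27 with dim probesets kept), Rab27a (0.33) and Angpt2 (-0.19) with dim values raised to the table median, and Rab27b (-0.36), Cxcl1 (-0.17), Plat (-0.02) and Treml2 (-0.09) as means over probesets. Itga2b (-0.22 with the level-dependent trend removed), Selplg and Sele, all close to 0, moved by as large a ratio. No paired analysis was possible because each condition has 1 array. The lack of detection calls limits what the dim genes Gp5, Selp and, in the inhibitor array, Pf4 can show.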
